A study of Homo sapiens with 12 samples.

Results

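The comparison described here set the transduced population B2 of the Hodgkin lymphoma cell line U-H01 against the population B1 of the same line, with the hairpin of each population left uninduced. It rests on 4 of the 12 arrays of the series, chosen by their titles: 2 arrays of B2 and 2 of B1, taken in each population at time points 1 and 2. The other 8 arrays were 4 of U-H01 labelled induced, again 2 of B2 and 2 of B1, and 4 of HBL-1, which comes from a diffuse large B-cell lymphoma with an activated B-cell profile. Cells of both lines carried doxycycline-inducible hairpins against RelB and cRel, with 2 different sequences for each target per the labels, and uninduced cells received no doxycycline. All 4 arrays therefore hold RNA of U-H01 cells infected with a hairpin vector, with no array of uninfected cells among them. The labels do not say which target or sequence B1 and B2 carry, apart from "Seq2" on the B2 arrays labelled induced, and they give no time point lengths. They name 1 population per letter and no separate cultures, so that the spread behind the p-values is that of these arrays and may be technical. Population, hairpin and handling cannot be told apart in this design.

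RelB and cRel are subunits of NF-kB, a family of dimeric transcription factors that are held inactive until receptors on lymphocytes signal, and whose constant activity is a known trait of Hodgkin Reed-Sternberg cells. Another programme that matters below is the integrated stress response: kinases that sense lack of amino acids, unfolded protein or double-stranded RNA slow general translation and thereby raise the translation of ATF4, a transcription factor that switches on genes for amino acid supply, tRNA charging and, through DDIT3, cell death. Much of the control of ATF4 itself lies in translation, which an RNA array does not see.

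Values are the deposited log2 levels, so a difference of 1 is a doubling, and differences are B2 minus B1 with the standard error (SE) of a linear model over all arrays with the time point as block. The array medians of all 12 arrays lay between 5.79 and 5.88, and the lower quartiles of the uninduced U-H01 arrays between 4.18 and 4.26, which serves as a guide to levels near background. Over the 19460 probe sets with 1 gene symbol, the B2 arrays correlated at 0.9961 with each other and the B1 arrays at 0.9964, against 0.9908 to 0.9929 between B2 and B1. The uninduced arrays correlated with those labelled induced at only 0.8935 to 0.9101, a range that overlaps that with HBL-1 (0.8856 to 0.8989). Of 6 genes that set the labelled induced arrays apart, 4 were low in all 4 arrays here and did not pass between B2 and B1 (SLC38A1, CD38, SLAMF6 and ST6GAL1), while GSTM1 and MAOA, high in all 4, were lower in B2, with values given further on. SLC38A1, an amino acid transporter, was at 3.93 and 4.51 in B2 and at 4.47 and 3.94 in B1, and CD38, a lymphocyte surface enzyme, at 4.59 and 4.53 in B2 and at 4.64 and 4.55 in B1.

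The labelled cell type was checked on Hodgkin and B-cell genes. TNFRSF8, which encodes CD30, a defining Hodgkin marker, had levels of 7.04 and 7.09 in B2 and of 6.79 and 6.65 in B1, and FUT4, whose enzyme makes the CD15 antigen, 7.03 and 6.94 in B2 and 6.68 and 6.75 in B1. Both were above the array medians but not high. IRF4 (10.78 and 10.83 in B2, 11.01 and 10.98 in B1) and BATF3 (10.96 and 10.85 in B2, 11.07 and 10.86 in B1), factors that Reed-Sternberg cells express strongly, were among the high genes. MS4A1, the gene of CD20, which Hodgkin cells usually lose, was near background at 4.35 and 4.47 in B2 and 4.58 and 4.56 in B1, while the B-lineage factor PAX5 was kept at 8.98 and 9.08 in B2 and 9.01 and 9.12 in B1. None of these 6 genes differed past the threshold.

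Of 18417 genes tested, 582 (3.16%) differed between B2 and B1 at an adjusted p under 0.05, with 145 (0.787%) higher and 437 (2.37%) lower in B2. Most differences were small: the median size among the called genes was 0.63, and 14 of the higher and 36 of the lower genes passed 2-fold. Each of the 582 had the same sign at both time points and no overlap between the arrays of B2 and B1, but so few arrays separate easily, and 9543 of all genes (51.8%) also showed no overlap. The median difference over all genes was 0.02, with 53.5% of genes above 0. These values and the shares called, 0.787% higher and 2.37% lower, are the background for every list count below. Between the time points 0 genes passed by limma, and 622 had an unadjusted p under 0.05. The number of calls depends on how much is tested and on each array. With the model refitted on all 33297 probe sets 3 genes were higher and 6 lower. That refit widens the adjustment and also changes the estimate of the spread, so that the SE of DDIT3, for example, went from 0.288 to 0.343. Without 1 uninduced array the difference rests on 1 B2 and 1 B1 array, and far fewer genes passed. All 582 kept their sign in these fits, which was fixed in advance. Each had the same sign at both time points, and a fit without 1 uninduced array returns the difference of the other time point. The fit on all probe sets returns the same difference as the main fit. Of each gene list described below, at most 1 called member kept its call without any 1 of the 4 arrays, so that the lists are described by their counts, medians and array values. With all probe sets in the fit SNORD14E was the 1 member of these lists still called.

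**Figure D1:**
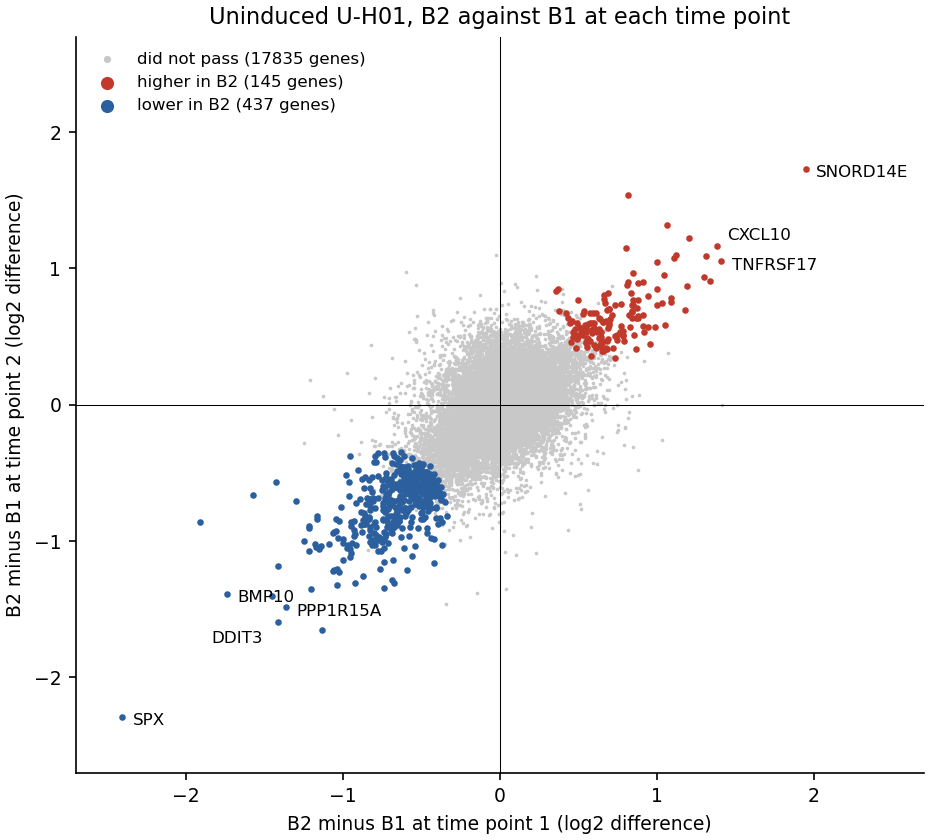
The difference between B2 and B1 at time point 1 (x axis, log2) against that at time point 2 (y axis, log2), 1 point per gene. The 145 genes called higher in B2 (red) lie at the upper right and the 437 called lower (blue) at the lower left, with SNORD14E and SPX as the outermost points. Both axes were used to make the calls.

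The genes of the hairpin targets did not pass between the populations, although the B2 and B1 arrays did not overlap in either. RELB had levels of 7.54 and 7.45 in B2 and of 7.23 and 7.38 in B1, a difference of 0.20 ± 0.12 (SE, n = 2 arrays each) with an adjusted p of 0.457 by limma and a 95% interval of -0.08 to 0.47. REL, the gene of cRel, had levels of 9.92 and 9.88 in B2 and of 10.05 and 9.98 in B1, a difference of -0.12 ± 0.11 with an adjusted p of 0.648 and an interval of -0.36 to 0.13. The lower ends of the intervals were -0.08 for RELB and -0.36 for REL on the log2 scale. They rest on the spread of these arrays, which may be technical, and so do not bound the difference between separate cultures. Among the other subunits NFKB1, which encodes a precursor of a DNA-binding subunit, differed by -0.28 ± 0.11 (adjusted p = 0.220), RELA, the main activating subunit, by -0.08 (0.781) and NFKB2 by 0.07 (0.846).

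The largest difference was in SPX, which encodes the secreted peptide spexin. Its levels were 5.64 and 5.46 in B2 and 8.04 and 7.75 in B1, a difference of -2.35 ± 0.12 or 5.09-fold lower in B2 (adjusted p = 2.32e-05). BMP10, a ligand of the TGF-beta family known from the heart, had levels of 4.76 and 5.31 in B2 and of 6.50 and 6.70 in B1 (-1.56 ± 0.14, adjusted p = 0.0019). Its B2 levels were under the array medians, so the fold may be understated. SLC25A27, a mitochondrial carrier of the uncoupling protein family, was at 6.38 and 6.22 in B2 and at 7.84 and 7.62 in B1 (-1.43 ± 0.15, adjusted p = 0.00224). CLNK, an adaptor of immune receptor signalling, was at 6.65 and 6.10 in B2 and at 7.78 and 7.76 in B1, and differed by -1.39. IL6, the gene of an inflammatory cytokine and NF-kB target, was at 8.26 and 7.89 in B2 and at 9.46 and 9.24 in B1, and differed by -1.27 ± 0.15 (adjusted p = 0.00348). The zinc finger gene ZNF674 differed by -1.18 and the fatty acid hydroxylase gene CYP4F12 by -1.14. The remaining 5 of the 12 genes furthest below B1 were the stress genes DDIT3, PPP1R15A and SESN2 and the detoxification genes AKR1C2 and GSTM2, described further on.

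On the other side stood SNORD14E, a C/D box small nucleolar RNA, of a class that guides the methylation of ribosomal RNA. Its levels were 7.71 and 7.57 in B2 and 5.76 and 5.84 in B1, a difference of 1.84 ± 0.12 or 3.58-fold higher in B2 (adjusted p = 0.000183). CXCL10, a chemokine gene induced by interferon and NF-kB, was at 10.40 and 10.26 in B2 and at 9.02 and 9.10 in B1 (1.27 ± 0.22, adjusted p = 0.0165). TNFRSF17, the gene of the plasma-cell receptor BCMA, was at 6.65 and 6.53 in B2 and at 5.24 and 5.48 in B1 (1.23 ± 0.17, adjusted p = 0.00655), with the B1 arrays under the array medians. GPR15, a lymphocyte homing receptor, was at 10.52 and 10.37 in B2 and at 9.32 and 9.15 in B1 (1.21 ± 0.11, adjusted p = 0.0019). The membrane protein genes TMEM45A and SMIM10 differed by 1.19 and 1.12, the transporter gene SLC22A10 by 1.12, and GPR158, a receptor known from neurons, by 1.11. TMEM45A, SLC22A10 and GPR158 had B1 levels of 4.63 to 5.19, where a fold may be understated. The other 4 of the 12 were the histone genes H2AC14 and H3C8 and the glycolysis and hypoxia genes ALDOC and BNIP3, described below.

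Of these 24 genes, the 5 genes SNORD14E, GPR15, SPX, BMP10 and SLC25A27 kept their call without any 1 of the 4 arrays. Another 9 lost it without either array of 1 of the time points, and 10 lost it without any 1 of the 4 (CXCL10, TNFRSF17, ALDOC, H2AC14, SMIM10, GPR158, H3C8, DDIT3, PPP1R15A and IL6). With all probe sets in the fit 18 of the 24 lost their call, SLC25A27 among them (adjusted p = 0.0522), and with only the 8 U-H01 arrays CXCL10, H2AC14, SMIM10 and DDIT3 lost it. DDIT3 also lost it with limma's trend and robust options (adjusted p = 0.108). All 24 kept their direction in each fit that was run, but most of these fits could not change it. Each of the 24 had the same sign at both time points by the naming rule.

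**Figure D2:**
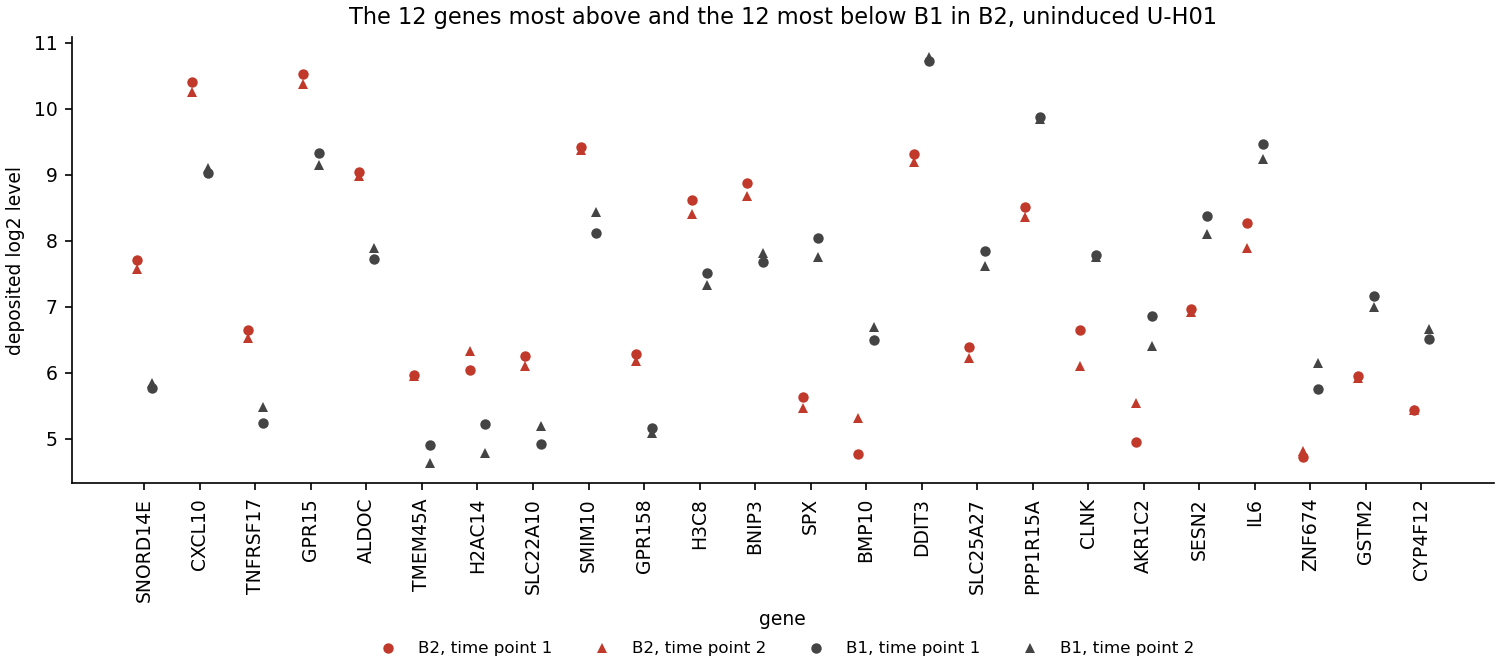
Deposited log2 levels (y axis) of the 12 genes furthest above and the 12 furthest below B1 among those called, with B2 in red left of B1 in grey, circles for time point 1 and triangles for time point 2. The gap between B2 and B1 is wider than that between time points for each gene, a choice the naming rule favours.

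Genes of the integrated stress response were called lower in B2 and none of those listed higher. Of 20 genes on a list for ATF4 and amino acid stress, 10 were lower in B2, 0 were higher and 10 did not pass, against 2.37% of all genes lower. The median difference of the list was -0.60, against 0.02 over all genes, and 16 of the 20 were lower at both time points, with medians of -0.61 at time point 1 and -0.59 at time point 2. DDIT3, the gene of the stress factor CHOP, had levels of 9.31 and 9.19 in B2 and of 10.72 and 10.78 in B1 (-1.50 ± 0.29, adjusted p = 0.0245). SESN2, a stress-induced inhibitor of mTORC1 that also senses leucine, was at 6.96 and 6.91 in B2 and at 8.37 and 8.10 in B1 (-1.30 ± 0.14, adjusted p = 0.00301). PPP1R15A, outside this list but among the 24 genes above, encodes the stress-induced phosphatase subunit that restores translation, and was at 8.51 and 8.36 in B2 and at 9.87 and 9.84 in B1 (-1.42 ± 0.18, adjusted p = 0.00391). In these 3 genes the difference at each time point was -1.18 or lower.

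Genes of amino acid supply were among the called ones. SLC7A5 and SLC3A2, the light and heavy chain of the leucine transporter, differed by -1.09 ± 0.17 and -0.73 ± 0.13, with levels of SLC7A5 at 9.63 and 9.64 in B2 and at 10.77 and 10.68 in B1. SLC7A11, the cystine transporter gene that shares the heavy chain, was at 7.14 and 7.04 in B2 and at 8.29 and 8.10 in B1 (-1.10 ± 0.25, adjusted p = 0.0408). CHAC1, which degrades glutathione, was at 6.93 and 7.12 in B2 and at 8.10 and 8.16 in B1 (-1.10 ± 0.19, adjusted p = 0.0159). TRIB3, a pseudokinase that inhibits ATF4, differed by -0.99, ASNS, the asparagine synthetase, by -0.69, PSAT1, an enzyme of serine synthesis, by -0.65 and CEBPB, a partner factor of ATF4, by -0.54. ATF4 itself was at 10.79 and 10.68 in B2 and at 11.04 and 11.12 in B1, which was -0.35 ± 0.13 and missed the threshold (adjusted p = 0.210). The 4 genes with a positive difference were VLDLR, PHGDH, DDIT4 and NUPR1, at 0.09 to 0.48, with levels of 6.36 or less in every array. Of the 10 called genes, 4 passed with the HBL-1 arrays left out of the fit.

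**Figure D3:**
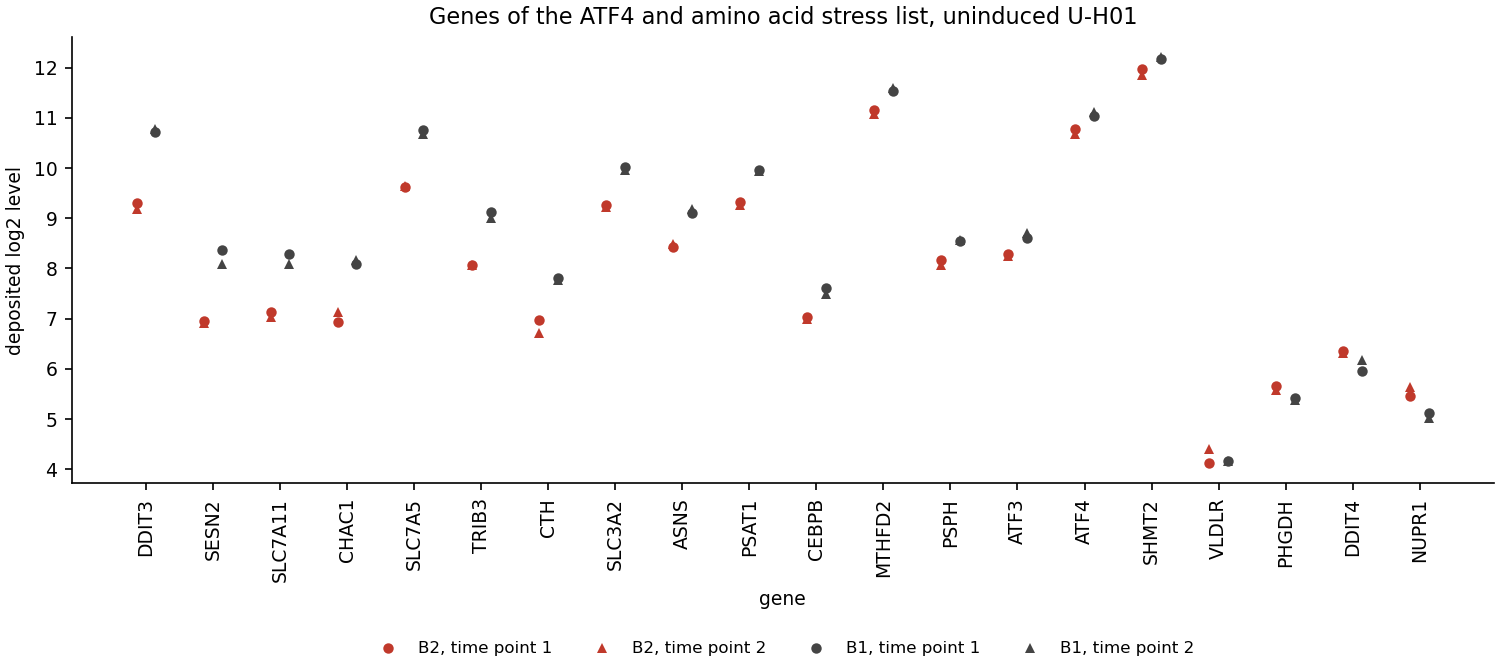
Deposited log2 levels (y axis) of the 20 genes of the ATF4 and amino acid stress list, ordered by their difference, with B2 in red left of B1 in grey, circles for time point 1 and triangles for time point 2. From DDIT3 to SHMT2 both B2 arrays lie below both B1 arrays, and the 4 genes at the right have low levels and positive differences.

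Further genes that stress and amino acid lack are known to induce were looked at after values had been seen, and lend no independent weight. ATF5, a factor related to ATF4, was at 10.83 and 10.76 in B2 and at 11.82 and 11.77 in B1 (-1.005 ± 0.14, adjusted p = 0.00659). GTPBP2, a GTPase linked to ribosome rescue in mice, differed by -0.92 ± 0.11 and INHBE, an activin subunit gene, by -0.90 ± 0.17. Of 19 cytosolic aminoacyl-tRNA synthetases, which load amino acids onto tRNAs, 3 were lower and 0 higher (15.8% called, against 2.37% of all genes lower), with a median of -0.38 and 13 lower at both time points. The count was 7 with each array centred on its median and among probe sets above the median level, 6 after quantile normalization, and 1 of the 3 passed without HBL-1. WARS1, for tryptophan, was at 10.77 and 10.62 in B2 and at 11.69 and 11.57 in B1 (-0.94 ± 0.17), MARS1, for methionine, differed by -0.69 and AARS1, for alanine, by -0.63. Of 16 mitochondrial synthetases 0 were called by limma, and their median was 0.07. Of 22 amino acid transporters 5 were lower and 1 higher (27.3% called, against 3.16% of all genes). The lower ones were SLC1A4 at -0.86 and SLC38A7 at -0.50 beside the 3 already named. The higher one was the glutamine transporter gene SLC38A5 at 0.76 ± 0.14, with levels of 9.29 and 9.20 in B2 and 8.41 and 8.57 in B1. Of these 6 transporters 3 passed without HBL-1.

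Promoters were searched on both strands for TGATGNAA, the core of the amino acid response element that ATF4 binds together with C/EBP factors. RefSeq windows (GRCh38.p14) of the 250 bases before each gene start held it in 1104 of 35116 cases (3.14%), in 2.31% of the windows of all genes tested, in 2.93% of those of genes called lower and in 2.1% of those of genes called higher. Counted by gene, 444 of 14239 genes tested with a window held it. Of the stress list 3 of 16 such genes did (ASNS, ATF3 and CHAC1), and of the cytosolic synthetases 3 of 16 (AARS1, GARS1 and IARS1). ATF3, GARS1 and IARS1 were not among the called genes. Shown are 2 called genes of these lists and HERPUD1, a called gene of the next list, each with the match in capitals and read along the strand of the gene. They lie at chr15:40953221-40953329 on the plus strand for CHAC1, at chr16:70289626-70289753 on the minus strand for AARS1 and at chr16:56931906-56932033 on the plus strand for HERPUD1, before the transcript, and in each the match is on the strand opposite to the gene. A match describes these letters and is not shown to be a bound site.
CHAC1: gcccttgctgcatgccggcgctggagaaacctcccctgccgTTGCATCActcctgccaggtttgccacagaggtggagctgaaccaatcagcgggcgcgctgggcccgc
AARS1: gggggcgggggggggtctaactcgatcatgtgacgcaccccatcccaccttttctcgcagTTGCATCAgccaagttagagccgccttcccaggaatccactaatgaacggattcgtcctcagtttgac
HERPUD1: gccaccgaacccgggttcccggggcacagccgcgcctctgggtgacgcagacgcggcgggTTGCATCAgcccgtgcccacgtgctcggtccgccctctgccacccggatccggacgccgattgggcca

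The unfolded protein response, which answers misfolded protein in the endoplasmic reticulum, split. Of 18 genes 3 were higher, 2 lower and 13 did not pass (27.8% called, against 3.16% of all genes), with a median of 0.03, which was -0.0108 with each array centred on its median. The lower genes belong to the disposal of misfolded protein. SEL1L, an adaptor of the ligase that exports it, was at 9.14 and 9.09 in B2 and at 10.08 and 10.10 in B1 (-0.98 ± 0.12, adjusted p = 0.00427), and HERPUD1, a membrane protein of the same machinery, at 9.79 and 9.73 in B2 and at 10.74 and 10.59 in B1 (-0.91 ± 0.14, adjusted p = 0.00914). The higher genes encode folding factors of the lumen. HSP90B1, a chaperone, was at 11.57 and 11.46 in B2 and at 10.94 and 10.90 in B1 (0.59 ± 0.12, adjusted p = 0.0256), PDIA4, a disulfide isomerase, differed by 0.59 ± 0.12 and SDF2L1, a chaperone cofactor, by 0.70 ± 0.16. CALR at 0.47 and CRELD2 at 0.50 had adjusted p of 0.0516 and 0.0675. With HBL-1 left out of the fit 2 of the 5 passed, and after quantile normalization or among probe sets above the median level 5 genes were higher. The endoplasmic reticulum stress element, CCAAT and CCACG with 9 bases between them, was searched on both strands. It was found in 26 of 35116 windows (0.07%). Counted by gene, 19 of 14239 genes tested with a window held it. Of the list 6 of the 18 genes did, CALR, CRELD2, HSP90B1, HSPA5, PDIA6 and XBP1. All 6 had a positive difference, from 0.14 to 0.59, of which that of HSP90B1 passed. Its promoter holds 2 matches, in capitals, the first on the strand of the gene and the second on the other, at chr12:103930160-103930399 on the plus strand. No printed promoter held matches of both motifs.
HSP90B1: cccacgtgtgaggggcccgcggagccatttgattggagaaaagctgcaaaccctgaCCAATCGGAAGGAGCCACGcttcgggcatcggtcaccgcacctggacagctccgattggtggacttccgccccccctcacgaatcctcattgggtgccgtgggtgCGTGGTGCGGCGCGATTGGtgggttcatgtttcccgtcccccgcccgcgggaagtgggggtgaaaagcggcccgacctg

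Replication-dependent histone genes, which are transcribed as DNA is copied, included genes called higher in B2 and none called lower. Of 31 genes 9 were higher, 0 lower and 22 did not pass, against 0.787% of all genes higher, with a median of 0.43 and 28 higher at both time points. H3C8 was at 8.62 and 8.40 in B2 and at 7.51 and 7.32 in B1 (1.09 ± 0.13, adjusted p = 0.00376), and H2AC14 at 6.04 and 6.32 in B2 and at 5.22 and 4.78 in B1 (1.18 ± 0.24, adjusted p = 0.0297). H2AC4 was at 9.65 and 9.57 in B2 and at 8.60 and 8.61 in B1 (1.001 ± 0.13), and H4C3 at 10.77 and 10.84 in B2 and at 9.86 and 9.94 in B1 (0.91 ± 0.11). The linker histone genes H1-5 and H1-2 differed by 0.63 and 0.58. Of all 58 core and linker histone genes found by symbol after values had been seen, 14 were higher and 0 lower, with a median of 0.37. H4C14 and H4C15 have identical values there, and near-identical copies can share signal in general, so these counts are not counts of independent genes. With HBL-1 left out of the fit 6 of the 9 passed.

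Other cell cycle lists had positive medians too. Of 24 mitosis genes 5 were higher and 0 lower (20.8% called, against 0.787% of all genes higher), with a median of 0.29. Each of the 24 differences was above 0, against 53.5% over all genes. KIF20A, a kinesin of cell division, was at 8.86 and 8.65 in B2 and at 8.02 and 8.01 in B1 (0.74 ± 0.16, adjusted p = 0.0378), CDC20, the activator of the anaphase ligase, differed by 0.69 and the proliferation marker MKI67 by 0.50 ± 0.11, with levels of 9.81 and 9.67 in B2 and of 9.32 and 9.16 in B1. TOP2A, a topoisomerase often used as a proliferation marker, differed by only 0.03 (adjusted p = 0.937). Of 24 DNA replication genes 3 were higher and 0 lower (12.5% called, against 0.787% of all genes higher), with a median of 0.28. CDC6, which loads the replicative helicase, was at 9.50 and 9.30 in B2 and at 8.75 and 8.79 in B1 (0.63 ± 0.13), CCNE1, the cyclin of S-phase entry, differed by 0.62 and the helicase subunit gene MCM4 by 0.52. With HBL-1 left out of the fit 2 of the 5 mitosis genes and 0 of the 3 replication genes passed (limma). The replication count was 7 among probe sets above the median level and 6 after quantile normalization, and the mitosis count 3 with arrays centred on their medians. In bulk RNA, more cells in a phase and more RNA per cell cannot be told apart.

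Glycolysis and hypoxia genes likewise had calls on the higher side alone. Of 23 genes 6 were higher and 0 lower (26.1% called, against 0.787% of all genes higher), with a median of 0.29 and 18 higher at both time points. ALDOC, an aldolase isoform, was at 9.04 and 8.99 in B2 and at 7.72 and 7.89 in B1 (1.20 ± 0.16, adjusted p = 0.00574). BNIP3, a mitophagy receptor induced by hypoxia, was at 8.87 and 8.68 in B2 and at 7.68 and 7.81 in B1 (1.03 ± 0.12, adjusted p = 0.00348). SLC2A1, the glucose transporter gene, was at 9.91 and 9.94 in B2 and at 9.27 and 9.31 in B1 (0.63 ± 0.14), and LDHA, the lactate dehydrogenase, at 12.51 and 12.42 in B2 and at 11.93 and 11.82 in B1 (0.59 ± 0.11). ALDOA and TPI1, both enzymes of glycolysis, differed by 0.52. Among other hypoxia targets VEGFA was at -0.31 (adjusted p = 0.391), ADM at 0.03 and NDRG1 at 0.06, and did not pass. With HBL-1 left out of the fit 3 of the 6 passed. Of 21 oxidative phosphorylation genes 0 were called by limma, with a median of 0.09, and of 12 heat shock genes 0 were called, with each difference above 0 and a median of 0.24.

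Of 23 receptor and co-stimulatory genes that NF-kB induces, 4 were lower and 0 higher (17.4% called, against 2.37% of all genes lower), with a median of -0.27 and 15 lower at both time points. CD274, which encodes the ligand PD-L1 of an inhibitory T-cell receptor, was at 9.56 and 9.38 in B2 and at 10.38 and 10.31 in B1 (-0.87 ± 0.12, adjusted p = 0.00574). PDCD1LG2, the gene of the related ligand, was at 9.05 and 9.18 in B2 and at 9.95 and 9.66 in B1 (-0.69 ± 0.13). CD44, a hyaluronan receptor, was at 9.67 and 9.63 in B2 and at 10.50 and 10.46 in B1 (-0.83 ± 0.11, adjusted p = 0.00534), and ICAM1, an adhesion molecule gene, at 9.60 and 9.59 in B2 and at 10.39 and 10.35 in B1 (-0.77 ± 0.17). With HBL-1 left out of the fit 2 of the 4 passed, while 9 genes were lower with each array centred on its median and 6 among probe sets above the median level. Of 22 target cytokines and chemokines IL6 was lower and CXCL10 higher, with a median of 0.07, which was -0.02 over the 11 above the median level. Of 17 feedback and inhibitor genes, which NF-kB induces to restrain itself, 0 were called by limma, with a median of -0.21, TNFAIP3 at -0.46 (adjusted p = 0.285) and NFKBIA at -0.30 (0.300). Of 17 upstream signalling genes the ubiquitin ligase gene TRAF6 was lower, at -0.61 ± 0.14, a call lost without HBL-1.

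Of 27 genes typical of Hodgkin Reed-Sternberg cells 4 were lower and 1 higher (18.5% called, against 3.16% of all genes), with a median of -0.06. Besides CD274 and PDCD1LG2 the lower ones were GATA3, a T-cell factor that these cells express out of lineage, at 9.57 and 9.60 in B2 and at 10.43 and 10.40 in B1 (-0.83 ± 0.12, adjusted p = 0.00659), and STAT3, a cytokine signal factor, at -0.55. Of the 5 called 2 passed without HBL-1. MSC, a repressor of B-cell genes, was higher, at 8.61 and 8.58 in B2 and 7.96 and 8.11 in B1 (0.56 ± 0.13). Of 26 B-cell identity genes FCER2, the gene of CD23, was lower, at -0.92 ± 0.16, and FCRLA higher, at 0.63 ± 0.14, with a median of -0.03, and 1 of the 2 passed without HBL-1. Of 14 plasma-cell genes TNFRSF17 alone was called. Of 31 interferon-stimulated genes USP18 (-0.73) and IFI35 (-0.56) were lower and 0 were higher (6.45% called, against 2.37% of all genes lower), with a median of -0.04, and of 13 genes that sense double-stranded RNA IFIH1 was lower, at -0.65. Without HBL-1 0 of these 3 genes passed by limma, while 5 interferon-stimulated genes were lower with arrays centred on their medians. Of the 31 interferon-stimulated genes 14 had a positive and 17 a negative difference. CXCL10, which is not on that list, was called higher, and a part of interferon in its difference was not tested. Of 15 small RNA processing genes AGO4, an Argonaute gene, was lower, at -0.83 ± 0.18, with 6.70 and 6.26 in B2 and 7.31 in both B1 arrays, a call lost without HBL-1.

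Markers of cells that a culture of U-H01 should not hold were called in shares of 0%, 0% and 6.25%, in the order below. Against 3.16% of all genes, counts from such short lists are near the background and are no result about such cells. Of 18 T and NK cell markers 0 were called by limma, with a mean level of 5.07 and 5.17 in B2 and of 5.08 and 5.04 in B1, and the T-cell receptor chain CD3E was at 4.27 in both B2 arrays and at 4.14 and 4.13 in B1. Of 13 myeloid markers 0 were called, with means of 4.85 and 4.97 in B2 and 4.75 and 4.70 in B1. Of the 13 differences 12 were above 0, with a median of 0.19, but only 5 markers were higher at both time points. CD163, a macrophage receptor, was at 3.66 and 3.80 in B2 and 3.60 and 3.47 in B1, near or below the lower quartiles. Of 16 stromal, endothelial and epithelial markers FAP, a surface protease of fibroblasts, was lower, at 8.26 and 8.09 in B2 and 8.97 and 8.91 in B1 (-0.76 ± 0.12), and the list means were 5.71 and 5.79 in B2 and 5.68 and 5.72 in B1. Any part of other cells in the differences was not tested.

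Single members of detoxification families were called lower in B2. AKR1C2, a steroid-reducing aldo-keto reductase, was at 4.95 and 5.54 in B2 and at 6.86 and 6.40 in B1 (-1.39 ± 0.21, adjusted p = 0.00803). AKR1C1, its near-identical neighbour, was at 5.42 and 5.88 in B2 and at 6.10 and 7.16 in B1 (-0.98 ± 0.15), but its other probe set differed by 0.19 (adjusted p = 0.521), so that the reading depends on the probes. GSTM2, a glutathione transferase of the mu class, was at 5.94 and 5.92 in B2 and at 7.16 and 6.996 in B1 (-1.14 ± 0.12, adjusted p = 0.00224), GSTM4 differed by -0.87, and GSTM1, the most abundant of them, was at 12.17 and 12.11 in B2 and 12.80 and 12.69 in B1 (-0.61 ± 0.13). These are close paralogs whose probes can share signal. Of 16 glutathione transferases 3 were lower, 0 higher and 13 did not pass (18.8% called, against 2.37% of all genes lower). The median of that list was -0.11, and its differences reached up to 0.44. Of 21 NRF2 targets and aldo-keto reductases, a list held together by the oxidative stress factor NRF2, 3 were lower and 0 higher, the 2 AKR1C genes and SLC7A11, with a median of 0.02, which was -0.03 with each array centred on its median. Without HBL-1 2 of the 3 passed. MAOA, a monoamine oxidase gene of another family, was lower too, at 10.71 and 10.76 in B2 and 11.43 and 11.31 in B1 (-0.64 ± 0.11).

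Small nucleolar RNAs were called more often as higher than as lower. Of 75 C/D box genes outside the SNORD115 and SNORD116 clusters, found by symbol, 8 were higher and 1 lower, and of 61 H/ACA box genes, which guide pseudouridylation, 2 were higher and 1 lower, with medians of 0.14 and 0.12. The shares called were 12% and 4.92%, against 3.16% of all genes. Without HBL-1 6 of the 9 C/D box and 0 of the 3 H/ACA box genes passed by limma. After SNORD14E came its relative SNORD14C, at 9.35 and 9.20 in B2 and 8.35 and 8.15 in B1 (1.03 ± 0.14, adjusted p = 0.00659), then SNORD30 at 0.85, SNORD12C at 0.78, SNORD75 at 0.75 and SNORD74 at 0.72, while SNORD33 was at -0.58. Such RNAs are cut from introns of host genes. SNORD14E and SNORD14C lie within the span of HSPA8, a chaperone gene, which was at 13.05 and 13.03 in B2 and at 12.84 and 12.68 in B1, so that it differed by 0.28 ± 0.12 (adjusted p = 0.255, not called). SNORD12C lies in ZFAS1, a noncoding host gene, which went the other way at -0.49 ± 0.12 (adjusted p = 0.0561). The H/ACA box genes SNORA29 at 0.55 and SNORA49 at -0.61 lie within TCP1 and EP400. These went the same way as their small RNA, at 0.34 ± 0.11 and -0.29 ± 0.11, and were not called. The 2 SNORD14 copies are alike in sequence and may share signal.

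Of 189 miRNA genes found by symbol 2 were lower and 0 higher, a smaller share than the 2.37% of all genes called lower. The count is thus no result about miRNA genes as a class. The 2 lower genes are neighbours on chromosome 2, and their mature sequences from RefSeq (GRCh38.p14) show that they do not share a seed, the stretch of bases 2 to 8 in capitals that pairs with targets. They lie on the minus strand, at chr2:55989020-55989041 and chr2:55988981-55989002 for the arms of MIR216A and at chr2:55983020-55983042 and chr2:55982984-55983005 for those of MIR217.
hsa-miR-216a-5p: uAAUCUCAgcuggcaacuguga
hsa-miR-216a-3p: uCACAGUGgucucugggauuau
hsa-miR-217-5p: uACUGCAUcaggaacugauugga
hsa-miR-217-3p: cAUCAGUUccuaaugcauugcc
MIR217 had levels of 4.69 and 4.32 in B2 and of 5.36 and 5.62 in B1 (-0.99 ± 0.16, adjusted p = 0.0105), and MIR216A 3.92 in both B2 arrays and 4.62 and 4.61 in B1 (-0.70 ± 0.11, adjusted p = 0.0105). The probe sets measure RNA of the gene, not the mature arms, and the levels of MIR216A in B2 were below the lower quartiles, where values are close to background.

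Among other lists, 4 of 32 autophagy genes, a list made after values had been seen, were lower and 0 higher (12.5% called, against 2.37% of all genes lower), with a median of -0.20. They were the cargo receptor genes CALCOCO2, at 8.46 and 8.40 in B2 and 9.39 and 9.36 in B1 (-0.95 ± 0.11, adjusted p = 0.00348), and NBR1 at -0.70, and the membrane-bound modifier genes MAP1LC3B at -0.62 and GABARAP at -0.53, and 3 of the 4 passed without HBL-1. Of 20 ribosomal protein genes RPL10A and RPL31 were lower, both at -0.54, and 0 higher, with a median of -0.15. The other probe set of RPL31 differed by -0.33 and did not pass by limma (adjusted p = 0.174). Of 17 MYC and ribosome biogenesis genes LYAR was higher, at 0.53, with a median of 0.19. Of 16 BCL2 family genes the survival gene BCL2L1 was lower, at -0.55. Without HBL-1 0 of these 4 genes passed by limma. Of 23 p53 targets SESN2 alone was called. Of 26 adhesion genes CD44, ICAM1 and the integrin gene ITGA3 (-0.68) were lower, of which 2 passed without HBL-1. Of 480 zinc finger genes named ZNF 18 were lower and 0 higher (3.75% against 2.37% of all genes lower), with a median of -0.06, and 3 of the 18 passed without HBL-1. BTN3A3, a butyrophilin, was the 1 of 10 of its family called, at 6.58 and 6.77 in B2 and 5.49 and 6.02 in B1 (0.92 ± 0.15). In the lists for cholesterol synthesis, MHC class I, MHC class II, immediate-early genes and the Schlafen family, with 16, 13, 10, 23 and 6 genes in that order, 0 were called by limma, while 1 MHC class I gene was higher after quantile normalization and 1 immediate-early gene lower with arrays centred on their medians.

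**Figure D4:**
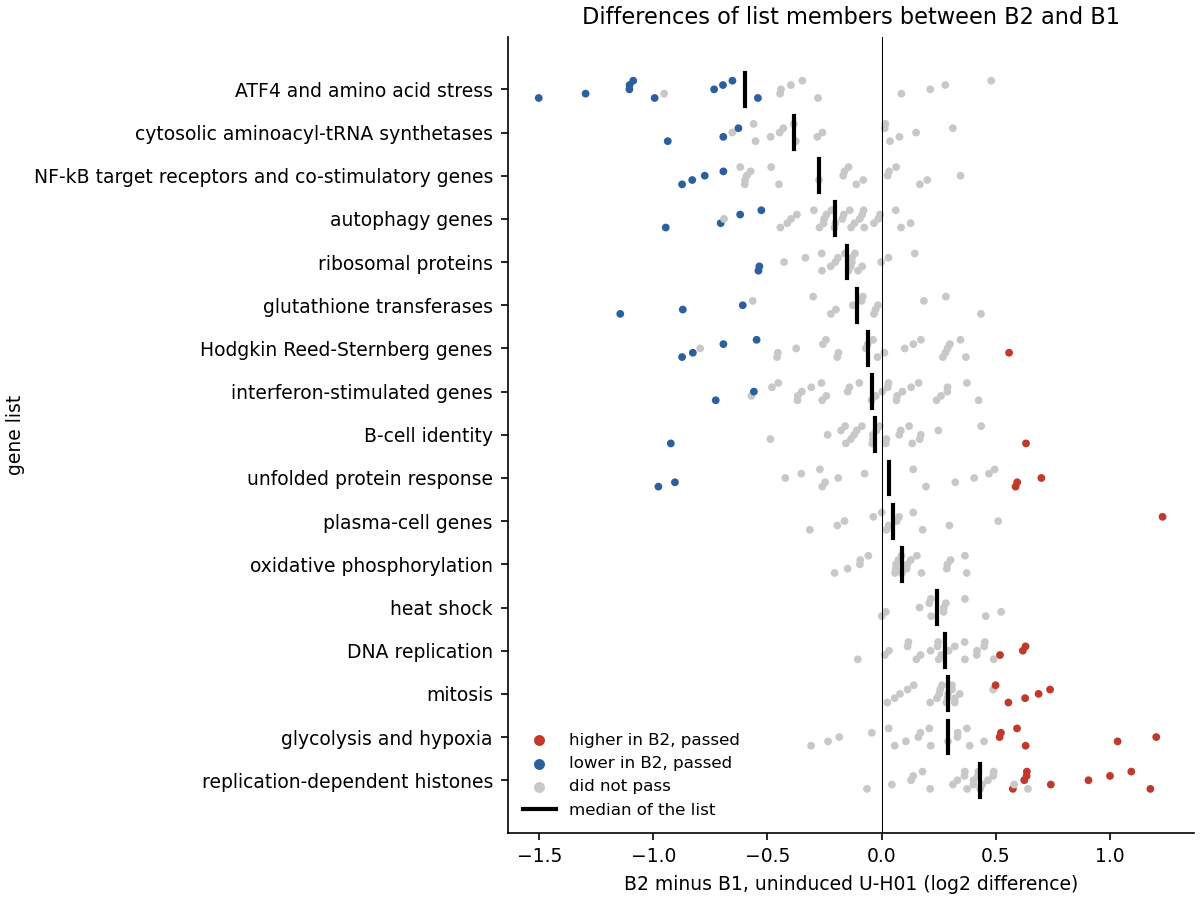
Differences between B2 and B1 (x axis, log2) of the members of 17 gene lists (y axis, 1 point per gene), with genes called higher in red, called lower in blue and others in grey, and the list median as a black bar. The medians run from -0.60 for the ATF4 and amino acid stress list at the top to 0.43 for the replication-dependent histones at the bottom.

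Higher and lower genes differed in kind and length. The span of the gene in GRCh38.p14 had a median of 12.4 kb for the 145 higher genes and of 46.2 kb for the 437 lower ones, against 24.5 kb over all genes. Among genes with a span under 3 kb 1.95% were higher and 0.9% lower, and among those over 100 kb 0.353% were higher and 3.59% lower, with median differences of 0.07 and -0.03. The 145 higher genes include histone genes and 10 small nucleolar RNAs. The median level was 8.11 for the higher and 7.64 for the lower genes, against 6.31 over all genes. The part of gene length in these results was not tested.

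The same 2 populations were also measured in the arrays labelled induced, which asks whether the difference belongs to the populations at large. There 22 of 18417 genes (0.119%) passed, 6 higher (0.0326%) and 16 lower (0.0869%) in B2, and 0 genes were called in both sets. Of the 24 genes named above 0 passed there by limma, with differences of -0.20 to 0.81 among the genes higher in uninduced B2 and of -0.38 to 0.53 among the lower ones. CXCL10 had the highest of these, 0.81 (adjusted p = 0.290). As only 0.119% of all genes were called there, both counts of 0 are near that share. They are no result about the 582 or the 24. Across all genes the differences of the 2 sets correlated at 0.12, and across the 582 at 0.03. The list medians were near 0 in the arrays labelled induced. They were 0.08 for the ATF4 and amino acid stress genes, -0.03 for the replication-dependent histones, -0.07 for glycolysis and hypoxia, 0.05 for mitosis and -0.02 for DNA replication. The difference between the sets was itself tested and passed in 84 genes (0.456%), of which 30 (0.163%) had the higher and 54 (0.293%) the lower value in the uninduced set, and 69 of the 84 were among the 582. It passed for 16 of the 24 named genes, SPX with an adjusted p of 0.000805 and SNORD14E with 0.00369 among them, and for few list members: TRIB3 of the 20 stress genes, H3C8 of the 31 histones, and ALDOC and BNIP3 of the 23 glycolysis and hypoxia genes. For most list members it is therefore not shown that the sets differ. The tested value holds the uninduced difference by which the 582 and the 24 were chosen. Their counts among the 84 were thus favoured by that choice and lend no support. Because the arrays labelled induced stand nearly as far from the uninduced ones as HBL-1 does, this comparison need not concern the same cells.

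**Figure D5:**
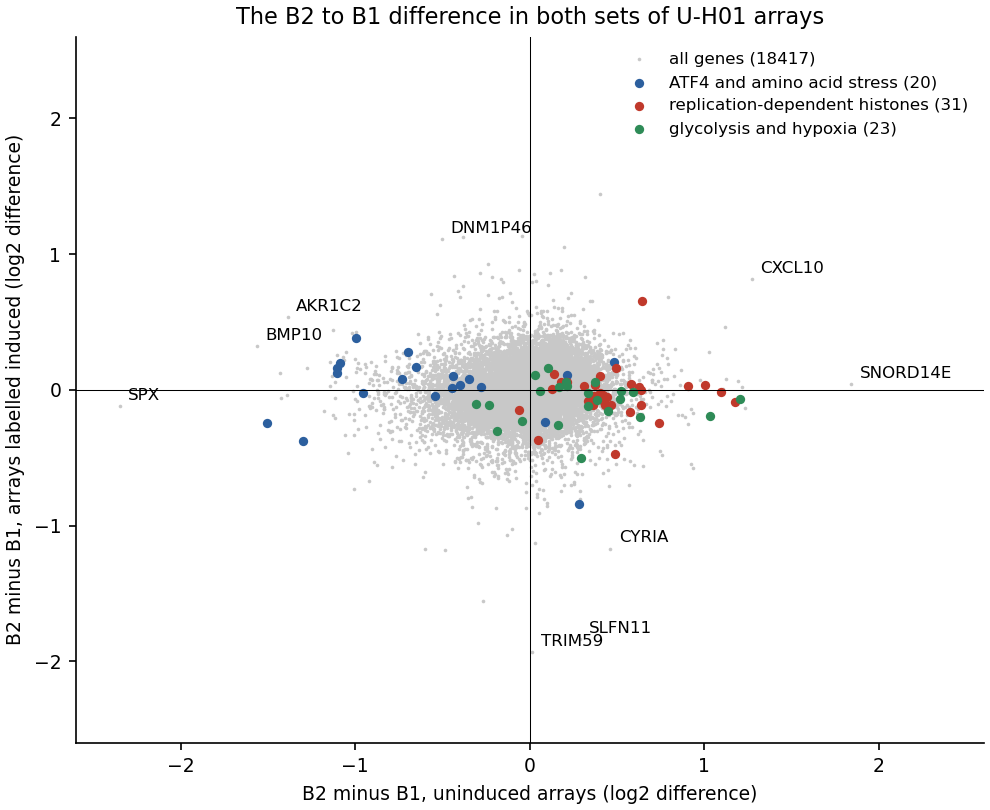
The difference between B2 and B1 in uninduced arrays (x axis, log2) against that in arrays labelled induced (y axis, log2), with all 18417 genes in grey and 3 lists in colour. The stress genes (blue) spread to the left and the histones (red) to the right along the x axis, with values near 0 on the y axis for most, while TRIM59, SLFN11 and CYRIA lie low on the y axis.

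The genes called in the arrays labelled induced were others. TRIM59, a ubiquitin ligase gene, differed there by -1.93 (adjusted p = 4.98e-05) and by 0.01 ± 0.11 in uninduced arrays, with 6.69 and 6.48 in B2 and 6.67 and 6.48 in B1. SLFN11, a factor that blocks stressed replication forks, differed there by -1.84 and by 0.29 ± 0.13 in uninduced arrays (adjusted p = 0.298). CYRIA, a regulator of actin, was at -1.17 there and at 0.46 ± 0.17 in uninduced arrays (adjusted p = 0.183). DNM1P46, a dynamin pseudogene, was at 1.11 there and at -0.50 ± 0.14 in uninduced arrays (adjusted p = 0.0925). CSTA, a protease inhibitor gene, showed the reverse, with -1.12 ± 0.15 in uninduced arrays (adjusted p = 0.00495), at 7.05 and 6.88 in B2 and 8.30 and 7.88 in B1, and 0.44 in the labelled induced ones (adjusted p = 0.406). These last 5 genes, with SPX, AKR1C2, BMP10, SNORD14E and BTN3A3, were picked with their values in these arrays known, and their differences lend no support.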

How the data were processed

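RNA was measured on 12 single-colour Affymetrix gene-level arrays. The authors deposited log2 levels, for which the submitters' processing notes name RMA and Partek, with versions and genome build not given in the sources used here. RMA's quantile step gives arrays nearly the same distribution, so a shift common to all genes would not show. Groups came from the sample titles. Of 33297 probe sets, 19460 had 1 gene symbol in the platform annotation and were tested, 1754 had several and 12083 none. They cover 18417 genes, the brightest probe set standing for each of the 769 genes with several. Entrez identifiers of 19429 matched RefSeq GRCh38.p14, which changed 0 symbols. A total of 0 pairs of arrays held identical values.

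The differences came from limma 3.58.1 (R 4.3.3, lmFit and eBayes) over the 12 arrays, with 6 group means and a time point term in each of 3 sets, 9 terms in all, which left 3 residual degrees of freedom beside a prior of 7.69. Tests were two-sided, with Benjamini-Hochberg adjustment over 19460 probe sets and calls under 0.05. A permutation of 2 arrays against 2 cannot go below 0.333. The number of arrays limits the precision. The time point block was stated as the design. Deviations of B2 and B1 arrays of the same time point from their population means correlated at 0.03. The rule for named genes took the 12 largest differences each way among called genes with the same sign at both time points and no overlap, the 5 largest each way for the other tests, the NF-kB subunits, and the called and leading members of each list. The members, lists and rules were chosen with earlier results of these data known, 4 lists and 4 families by symbol after values were seen.

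On simulated data over 19460 probe sets, the model recovered 14 of 67 genes changed by 1.41-fold, 61 of 67 by 2-fold and 66 of 66 by 4-fold for this comparison, with 11 of 19260 unchanged ones called. The noise was drawn independently for each array and probe set, from the spread limma had estimated, and fitted with the same model. Spread between cultures and noise shared by probe sets were not simulated, so the recovery does not cover them. Figures were drawn with matplotlib under Python.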

Additional observations from a re-analysis of the deposited data

Results flagged for a closer look

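The difference between B2 and B1 was not the same in uninduced arrays and in arrays labelled induced for 84 genes, by an interaction term in limma. The values that follow are the uninduced difference minus the labelled induced one. It was 2.12 for SLFN11, 1.95 for TRIM59, 1.80 for SNORD14E, 1.63 for CYRIA and 1.51 for LIMD1-AS1, and -2.23 for SPX, -1.92 for AKR1C2, -1.89 for BMP10, -1.61 for DNM1P46 and -1.57 for CSTA. In SLFN11, TRIM59, CYRIA and DNM1P46 the labelled induced arrays carried most of it, and in SPX, SNORD14E and BMP10 the uninduced ones. LIMD1-AS1, an antisense RNA gene, was at 6.56 and 6.73 in B2 and at 5.47 and 5.95 in B1 without induction (0.93 ± 0.14, adjusted p = 0.00854), against -0.58 between the populations in the labelled induced arrays (adjusted p = 0.239).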

How the results depend on the processing

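All 582 genes kept their sign in every alternative in which they were tested. Most alternatives return the main difference or that of 1 time point, so this was largely fixed in advance. Only rescaled arrays or averaged probe sets could give another difference. The number of calls moved. With only the 4 uninduced arrays and the replicate block 265 genes were higher and 693 lower, with only the 8 U-H01 arrays 60 and 156, with all probe sets tested 3 and 6, with trend and robust options 349 and 699, and without the arrays labelled induced, an alternative chosen after seeing the data, 258 and 715. Leaving out 1 U-H01 array gave 3 to 258 higher and 10 to 715 lower. The low ends came without an uninduced array, where the difference rests on 1 B2 and 1 B1 array. The high ends came without a labelled induced array, where the time point term absorbs its partner. Each such fit gave the same 258 and 715 as the fit without all arrays labelled induced. Without the replicate block 624 genes passed, 511 of them among the 582. The replicate numbers stand for time points, and this block lost none of the 24 named genes (0). For the labelled induced arrays the 6 higher and 16 lower genes became 1 and 5 with only U-H01, 0 and 2 with all probe sets, 3 and 8 after quantile normalization, 13 and 26 with trend and robust options, 8 lower among probe sets over the median level alone, and 4 to 23 higher and 6 to 59 lower with 1 array left out. For the difference between the sets 30 and 54 became 3 and 4 with only U-H01, 0 and 0 with all probe sets (limma, 2136 at an unadjusted p under 0.05 in the main model), 100 and 151 with trend and robust options, and 3 to 70 and 4 to 168 with 1 array left out. The time points gave 0 to 1 higher gene with 1 array left out. With arrays centred on their medians 83.8% of calls were lower, against 75.1%, the median over all genes turned to -0.03, and the medians of the unfolded protein response (-0.0108), NRF2 (-0.03), double-stranded RNA sensing (-0.04) and adhesion (-0.00924) lists turned negative. Among probe sets above the median level those of target cytokines (-0.02), double-stranded RNA sensing (-0.00529) and immediate-early genes (-0.13) did. Leaving out the B2 or the B1 array of a time point gives the same fit, since the time point term absorbs its partner. Levels near background limit the folds of low genes.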
